A study of Mus musculus with 6 samples.

Results

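Origin licensing and the control of its loader Cdt1 were examined as a group of 9 genes in mouse tongue. The group was written as a list of genes by role, namely the origin recognition genes Orc1, Orc2 and Orc6, the helicase loaders Cdc6 and Cdt1, the Cdt1 inhibitor gene Gmnn, the Cdt1 degradation receptor gene Dtl, and the firing kinase genes Cdc7 and Dbf4. It was chosen from earlier results of the same contrast, that is, with the differences between mice given doxycycline (DOX) and mice not given it already known, so the values of these genes in that contrast are given as a description and support nothing by themselves. All 9 genes had a probe on the array, 11 probes in all, and 7 of the 9 passed the filter on dim probes, within 26256 genes and unnamed probes that passed it.

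RNA came from tongue tissue of 6 mice, each on a separate single-colour Agilent array. There were 3 mice given DOX for 2 weeks and 3 untreated mice. All 6 were iDek mice on a C57Bl6 background, in which DOX switches on Dek, a chromatin protein gene; the labels call the line both ubiquitous and specific to squamous cells, and give neither the driving promoter, nor the age, nor the hour at which tissue was taken. Mice given DOX but lacking the transgene are not analysed here, and an effect of the drug itself cannot be told apart from one of Dek. The Dek probe read 1319, 1339 and 1253 signal units on the DOX arrays, against 1302, 1052 and 1130 on the no DOX arrays. These groups overlapped, and Dek was 1.12-fold higher with DOX (95% interval 0.938 to 1.34; limma, adjusted p = 0.456 over all tested probes). The part of the transcript that this probe reads, and whether the transgene carries it, is stated in no label or header used here, so the value does not check the labels.

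Between 56.0% and 58.3% of probes were well above background on each array, no spot was saturated, and 3 arrays a group limit the precision of every value. All 9 keratinocyte markers and all 6 muscle markers passed the filter. So did all 6 gland markers, all 5 stroma and vessel markers, and 30934 of 55681 probes. These counts alone do not single out tongue. Signals below are Agilent's background-subtracted processed signal. The log2 level of a probe is the log2 of that signal minus the array's 75th percentile, log2 differences are DOX minus no DOX on that scale, and ± after a difference is its standard error (SE).

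Before DNA is copied, the origin recognition complex marks the starting sites, and Cdc6 and Cdt1 load the MCM2-7 helicase onto them, which is called licensing. Geminin, the product of Gmnn, binds Cdt1 and blocks reloading in the same cycle, and Dtl (also called Cdt2) is the receptor through which the CRL4 ubiquitin ligase destroys Cdt1 that is bound near PCNA on replicating DNA. Cdc7 with its activating partner Dbf4 then phosphorylates the loaded helicase so that origins fire. Many genes of this machinery are transcribed under E2F factors at the entry to S phase, and in a stratified epithelium such as the tongue surface these cells lie in the basal layers.

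The stretches of promoter that follow are shown because they hold the E2F-like words found in Orc1, Dtl, Cdc6 and Cdt1, with Orc6 and Dbf4 as members whose windows held none. Sequences are from RefSeq on build GRCm38.p6, which held promoter windows (250 bases before to 50 after a start) for 8 of the 9 members, 10 windows in all; Gmnn was not among them. The array was annotated on another build, so no probe positions are given. Each stretch runs 5′ to 3′ along the gene, positions are counted from the start with 1 as the first transcribed base, and capitals mark a match to TTTCCCGC, TTTGGCGC, TTTCGCGC or TTTGCCGC on either strand.
Orc1 (chr4:108579354-108579453, + strand, bases -100 to -1): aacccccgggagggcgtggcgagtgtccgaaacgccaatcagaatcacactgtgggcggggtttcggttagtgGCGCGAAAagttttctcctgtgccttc
Dtl (chr1:191575545-191575644, - strand, bases -100 to -1): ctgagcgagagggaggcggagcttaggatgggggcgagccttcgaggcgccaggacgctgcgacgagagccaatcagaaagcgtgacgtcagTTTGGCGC
Cdc6 (chr11:98907967-98908066, + strand, bases -184 to -85): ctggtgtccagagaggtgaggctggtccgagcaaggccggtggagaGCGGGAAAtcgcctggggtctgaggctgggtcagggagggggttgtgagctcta
Cdt1 (chr8:122568035-122568064, + strand, bases 21 to 50): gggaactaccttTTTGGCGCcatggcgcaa
Orc6 (chr8:85299532-85299631, + strand, bases -100 to -1): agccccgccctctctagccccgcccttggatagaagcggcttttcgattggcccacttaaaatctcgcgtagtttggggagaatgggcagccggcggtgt
Dbf4 (chr5:8422717-8422816, - strand, bases -100 to -1): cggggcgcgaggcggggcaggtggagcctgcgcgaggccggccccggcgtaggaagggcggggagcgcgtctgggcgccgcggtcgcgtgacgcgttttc

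Orc1, Dtl, Cdc6 and Cdt1 each held 1 such match. It was TTTCGCGC on the opposite strand 27 to 20 bases before the start of Orc1, and TTTGGCGC in the 8 bases just before the start of Dtl. In Cdc6 it was TTTCCCGC on the opposite strand from base -138 to -131, and in Cdt1 it was TTTGGCGC inside the transcript, at bases 33 to 40. The windows of Orc2, Orc6, Cdc7 and Dbf4 held no match to these 4 words. By window, 4 of the members' 10 held one, against 2.26% of 32851 promoter windows of the same length. That share covers all windows, whether or not the gene was tested here. Among tested genes outside the group that had a window, 495 held a match and 11553 did not. A match is a description of letters, and says nothing about binding.

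Other words were spread differently. CCAAT, on either strand, occurred in the windows of Orc1, Dtl, Orc6 and Orc2 (5 of 10 windows, against 37.4% of all windows). TTTGAA, the core of the cell-cycle element called CHR, occurred in both Cdc7 windows, which overlap and share the same match, and in Dbf4 (3 of 10 windows, against 17.9% of all). The E-box CACGTG, to which clock factors bind, was in none of the 10 windows, against 7.15% of all. No match to 1 of these motifs overlapped a match to another in the members' windows.

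**Figure D1:**
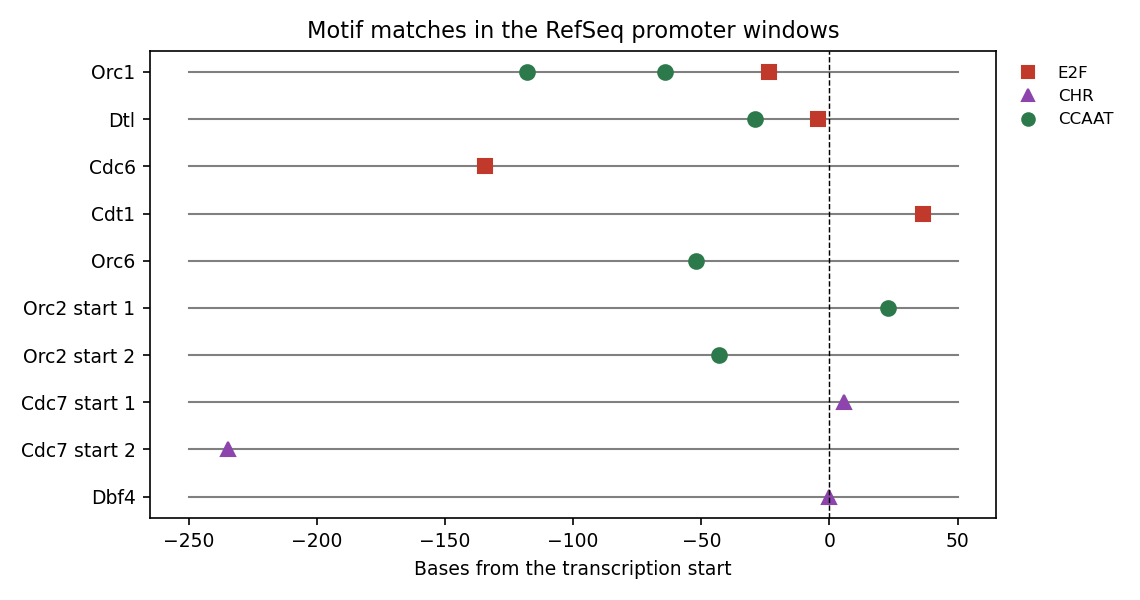
Motif matches in the RefSeq promoter windows of 8 licensing genes. The horizontal axis is the distance in bases from the transcription start (dashed line), each grey line is 1 window, and markers show matches on either strand to the 4 E2F-like words (squares), TTTGAA (CHR, triangles) and CCAAT (circles); squares appear in Orc1, Dtl, Cdc6 and Cdt1 alone.

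Dtl, Cdc6 and Cdt1 were 3.17-fold to 4.02-fold higher in mice given DOX, the dim Orc1 probe was higher as well, and Orc2, Orc6 and Gmnn were higher by 1.34-fold to 1.42-fold. Dbf4 was 1.11-fold higher with overlapping groups. In the fit over the whole table (limma, Benjamini-Hochberg adjusted p under 0.05) 3 of the 7 tested members rose, 0 fell and 4 did not pass, where 0.278% of all tested genes and unnamed probes rose. In 6 of the 7 all 3 DOX values lay above all 3 no DOX values, as they did for 12.7% of everything tested. Because this contrast chose the members, nothing is read from either count. The median log2 difference of the 7 was 0.51, and that of everything tested was -0.006. Leaving out no DOX replicate 1 or no DOX replicate 2 left 0 of these calls. In each of these fits 6 of 7 members had an unadjusted p under 0.05 (limma). So did 3616 of 26571 genes and unnamed probes in the first fit and 3613 of 26492 in the second. Nothing is read from the members' count here either. Leaving out DOX replicate 1, DOX replicate 3 or no DOX replicate 3 left Dtl alone, and leaving out DOX replicate 2 left all 3. Orc1 was called as well in that last fit, but it entered only through the remaining pair of DOX arrays, since 0 no DOX arrays were well above background, so nothing is read from that call. On the one slide, row 2 held DOX replicates 2 and 3, and row 1 the other 4 arrays. Within row 1 the log2 differences were 2.15 for Dtl, 2.04 for Cdc6 and 1.81 for Cdt1 (limma, adjusted p = 0.0277, 0.0910 and 0.0696), with DOX replicate 1 assumed to vary like the no DOX arrays.

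**Figure D2:**
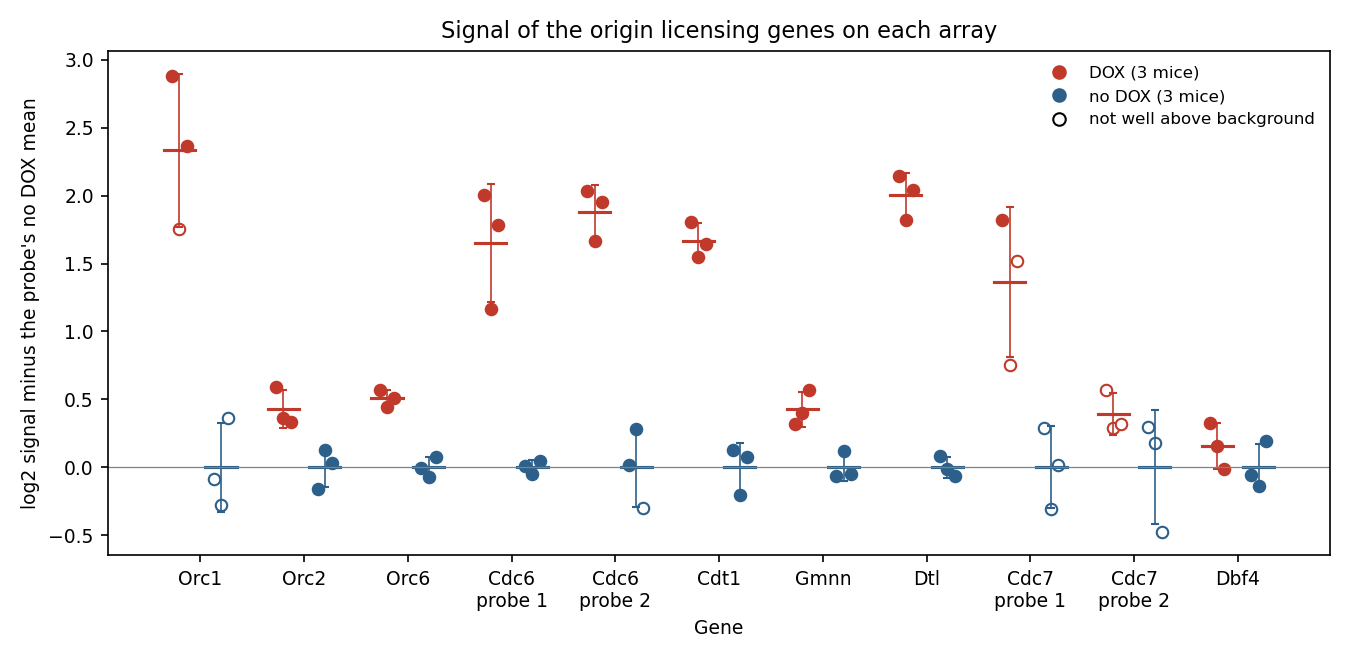
Signal of the 9 licensing genes on each array. The vertical axis is the log2 level minus the mean of the 3 no DOX arrays for that probe; points are single mice (DOX left, no DOX right), horizontal bars are group means with SD, and open points were not well above background. Dtl, Cdt1 and both Cdc6 probes form separate groups, while Dbf4 overlaps.

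Orc1 encodes an ATP-binding subunit that is needed to recruit Cdc6 to origins. Its probe read 19.5, 9.03 and 14.2 signal units with DOX, against 2.64, 2.16 and 3.37 without DOX. It was well above background on DOX arrays 1 and 3 and on no array without DOX, so Orc1 failed the filter. The groups did not overlap, and the DOX mean was 1.5-fold a floor for the no DOX arrays. The floor is the dimmest well-above-background probe of each no DOX array, or the probe's own signal where that is higher. DOX replicate 2 enters the mean without being well above background, so 1.5-fold is no strict lower bound. The measured log2 difference of 2.33 rests in part on signals not well above background, those of DOX replicate 2 and every no DOX array. It has no standing as a size, and normexp gave 0.29.

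Orc2, a core subunit of the complex, read 106, 91.1 and 92.5 signal units with DOX, against 66.9, 75.8 and 71.5 without. Every DOX array was above every no DOX array, with a gap of 0.21 on the log2 scale. The log2 difference was 0.43 ± 0.13 (n = 3 and 3), a 1.34-fold higher level with a 95% interval of 1.09 to 1.66, and with normexp 0.25. Orc6, the smallest subunit, read 937, 878 and 940 with DOX, against 675, 596 and 663 without. Its spread was small, with SDs of 0.06 with DOX and 0.07 without on the log2 scale, and the groups lay 0.38 apart. Orc6 was 1.42-fold higher (log2 0.51 ± 0.10, 95% interval of the fold 1.20 to 1.67). Neither Orc2 nor Orc6 passed the whole-table threshold (limma, adjusted p = 0.165 and 0.0894).

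The other subunits of the complex gave smaller differences. Orc3 had log2 levels of 1.5, 1.72 and 1.48 with DOX, against 1.53, 1.61 and 1.36 without, and the groups overlapped (difference 0.06 ± 0.12). Orc4 lay at -1.49, -1.45 and -1.61 with DOX, against -1.33, -1.32 and -1.28 without, so every DOX array was the lower (difference -0.20 ± 0.10). Orc5 had a log2 difference of 0.21 ± 0.11 with groups that did not overlap. In the list of 7 other origin recognition genes and their chromatin partners, 0 passed the test in either direction, the DOX mean was the higher in 5 and the lower in 2, and the median log2 difference was 0.06. The smallest adjusted p there was that of Orc4 (limma, adjusted p = 0.320), and Lrwd1, which stabilises the complex on chromatin, stood at 0.22 ± 0.13. Whether Orc2 and Orc6 differ from Orc3, Orc4 and Orc5 was not tested.

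Cdc6, an ATPase that joins the origin recognition complex and brings in the helicase, was read by 2 probes. The brighter one read 51.5, 40.3 and 50.8 signal units with DOX, against 13.5, 15.1 and 10.2 without. The lowest DOX array lay 1.38 above the highest no DOX array on the log2 scale, and no DOX replicate 3 was not well above background. That probe gave a log2 difference of 1.88 ± 0.18, a 3.69-fold rise (95% interval 2.74 to 4.98; limma, adjusted p = 0.0220). The other Cdc6 probe read 45.0, 25.6 and 40.4 with DOX, against 12.0, 10.7 and 11.5 without, and was well above background on all 6 arrays. It agreed in direction, with a log2 difference of 1.65 ± 0.22 and a 95% interval of the fold from 2.19 to 4.49 (limma, adjusted p = 0.0461). With normexp background correction, which adds an offset of 50 to dim and bright spots alike, the log2 differences of these probes were 0.57 and 0.40.

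Cdt1, the partner that carries MCM2-7 to the origin, was well above background on all 6 arrays. It read 1412, 1193 and 1326 signal units with DOX, against 468, 348 and 423 without. The groups lay 1.42 apart on the log2 scale, and both spreads were small, with SDs of 0.13 with DOX and 0.18 without. Cdt1 rose 3.17-fold, with a log2 difference of 1.67 ± 0.13 and a 95% interval of the fold from 2.54 to 3.96 (limma, adjusted p = 0.0151).

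Gmnn, the gene of the Cdt1 inhibitor geminin, read 153, 164 and 189 signal units with DOX, against 125, 132 and 117 without. The groups did not overlap but lay only 0.20 apart on the log2 scale. Its log2 difference was 0.42 ± 0.12, a 1.34-fold higher level with a 95% interval of 1.11 to 1.63, and it did not pass the whole-table threshold (limma, adjusted p = 0.142). The upper bound of the Gmnn interval lay below the lower bound of the Cdt1 interval. That comparison of intervals is a description within the contrast that chose both genes, and the difference between them was not tested. Of the geminin relatives, Mcidas had a log2 difference of -0.15 ± 0.14 with overlapping groups, and Gmnc did not pass the filter.

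Dtl, the receptor gene of the ligase that destroys Cdt1, was well above background on all 6 arrays. It read 167, 136 and 164 signal units with DOX, against 42.6, 37.0 and 35.8 without. The groups lay 1.74 apart on the log2 scale, the widest gap of the 11 probes. Dtl rose 4.02-fold (log2 2.01 ± 0.12, 95% interval of the fold 3.29 to 4.92; limma, adjusted p = 0.0111). It ranked 78 by log2 difference among everything tested, with Cdc6 at 94 and Cdt1 at 126. With normexp the log2 difference of Dtl was 1.07 and that of Cdt1 1.46, so their order turned.

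The rest of the ligase that Dtl serves gave a mixed picture. Of 6 genes of the CRL4 core and its platform, 1 rose, 0 fell and 5 did not pass, with a median log2 difference of 0.09. The one that rose was Pcna, the sliding clamp on which Dtl meets Cdt1, at log2 levels of 3.90, 3.77 and 3.76 with DOX, against 3.03, 2.91 and 2.92 without. Pcna was 1.81-fold higher (log2 0.86 ± 0.10; limma, adjusted p = 0.0359). The scaffold gene Cul4a had a log2 difference of 0.10 ± 0.10, Cul4b of 0.08 ± 0.12 and the adaptor gene Ddb1 of -0.05 ± 0.10, each with overlapping groups. The other 3 proteins listed as targets of this ligase, encoded by Cdkn1a, Kmt5a and Tdg, lay between -0.07 and -0.01, and all overlapped.

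Cdt1 is also recognised by Skp2 of the SCF ligase, and Skp2 was 2.02-fold higher (log2 1.02 ± 0.17) without passing (limma, adjusted p = 0.0710). Its log2 levels were -2.00, -2.39 and -2.13 with DOX, against -3.22, -3.42 and -2.93 without, so the groups did not overlap. None of the 4 tested SCF genes passed (median log2 difference 0.32). The APC/C ligase removes geminin and Cdc6 after mitosis, and 0 of 7 of its genes passed (median 0.01). Fbxo5, an inhibitor of that ligase, was 2.12-fold higher with separate groups (log2 1.08 ± 0.18; limma, adjusted p = 0.0704), whereas Fzr1, which encodes an activator of the ligase, was at 0.01 ± 0.12.

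Cdc7, the catalytic subunit of the firing kinase, was read near background by a pair of probes. The first read 15.5, 7.47 and 13.2 signal units with DOX, against 5.72, 3.51 and 4.42 without, and was well above background on DOX replicate 1 alone. Its groups did not overlap. Against the floor used for Orc1 the DOX mean was 1.27-fold higher. DOX replicates 2 and 3 were not well above background, so this is no lower bound. With normexp the log2 difference was 0.18 for this probe and 0.05 for the other one. The other Cdc7 probe read 10.3, 8.58 and 9.06 with DOX, against 9.08, 7.80 and 4.94 without. It was well above background on no array, and its groups overlapped. Cdc7 was therefore not tested.

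Dbf4, which activates Cdc7, read 48.5, 43.7 and 40.1 signal units with DOX, against 39.8, 35.0 and 44.2 without. No DOX replicate 3 exceeded DOX replicates 2 and 3, and the groups overlapped. The log2 difference was 0.15 ± 0.14, with a 95% interval of the fold from 0.876 to 1.40 (limma, adjusted p = 0.631). The interval spans 1, and it also holds a rise of the size measured for Orc2 or Gmnn. Of 4 genes that oppose the kinase, Rif1 and the 3 catalytic subunits of protein phosphatase 1, 0 passed and the median log2 difference was 0.03. Rif1 itself was at 0.25 ± 0.10 with separate groups (limma, adjusted p = 0.237).

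**Figure D3:**
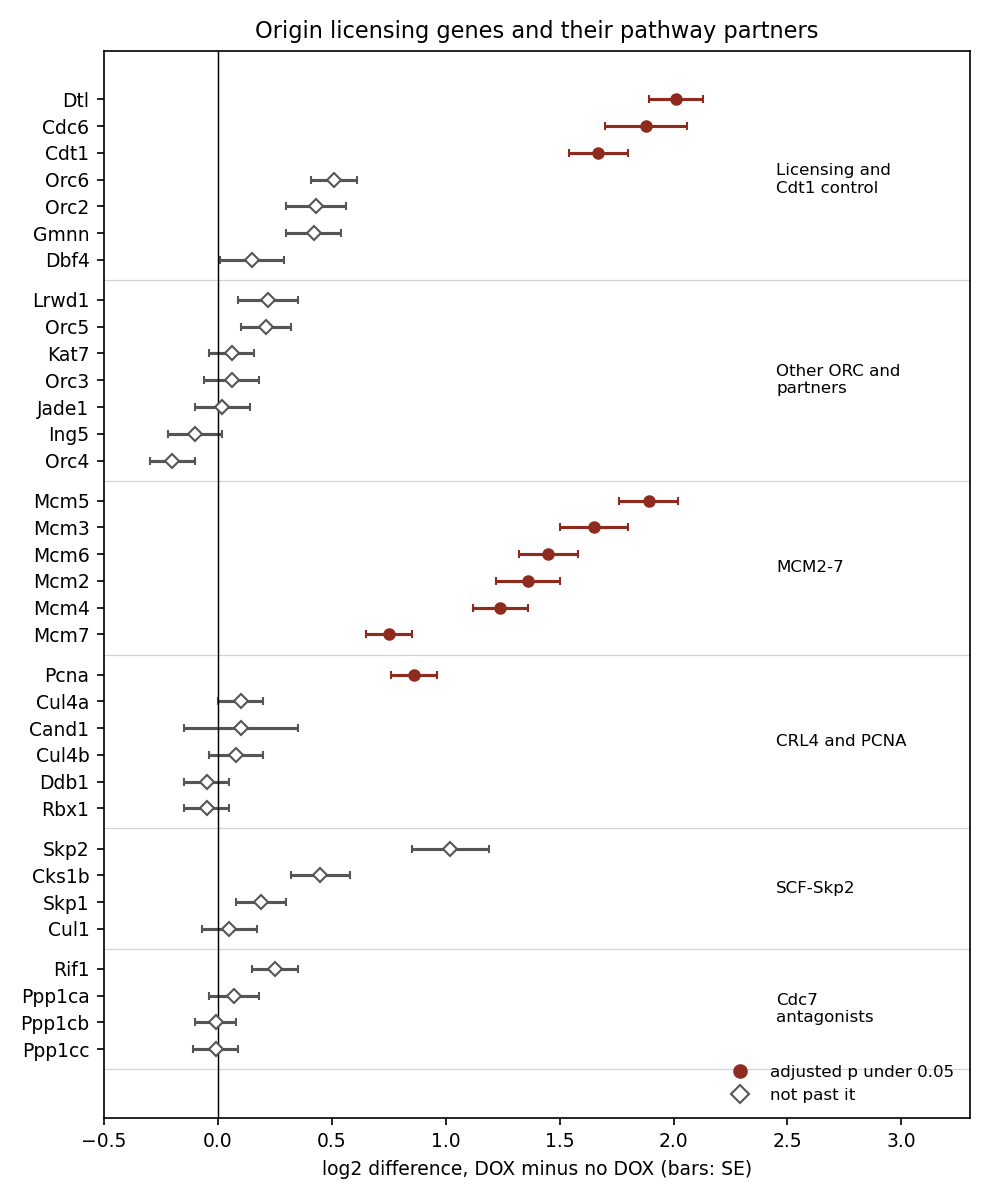
Log2 difference, DOX minus no DOX, for the 7 tested licensing genes and for their partners, grouped by role (points with SE bars, n = 3 and 3). Filled circles passed an adjusted p of 0.05 over the whole table. Dtl, Cdc6, Cdt1, all 6 MCM2-7 genes and Pcna are filled, and the other ORC subunits and the CRL4 core lie near 0.

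Among the genes of the helicase that these loaders place, MCM2-7, all 6 rose, with a median log2 difference of 1.41. Mcm5 was at log2 levels of 1.98, 1.67 and 1.70 with DOX, against -0.11, -0.20 and -0.01 without, a difference of 1.89 ± 0.13 (limma, adjusted p = 0.0111). Mcm7 had the smallest difference of the 6 (0.75 ± 0.10; limma, adjusted p = 0.0470). Among 14 origin firing factors 6 rose, 0 fell and 8 did not pass, and all 14 had a higher mean (median 0.82). The firing factor gene Mcm10 was 3.80-fold higher, Pole, the catalytic subunit of the leading-strand polymerase, 2.46-fold, and Ticrr, which brings in Cdc45, 2.97-fold. Gins3 lay at 0.05 ± 0.12 and Gins4 at 0.12 ± 0.10, beside Gins1 at 0.93 ± 0.11 and Gins2 at 1.02 ± 0.12, although the 4 encode one complex. Of 5 fork protection and checkpoint genes and of 5 S phase cyclin and kinase genes, 0 passed in either list (medians 0.56 and 0.52). Over everything tested, 1 gene or unnamed probe rose when no DOX replicate 1 was left out and 2 rose when it was no DOX replicate 2, so nearly all of these partner calls were lost in those fits. Claspin, encoded by Clspn, was well above background on all 3 DOX arrays and on no array without DOX, so it entered through the DOX arrays alone. Ccne1 was 1.97-fold higher (limma, adjusted p = 0.0629).

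E2F-like words were also looked for in the partners. They occurred in 4 of the 5 MCM2-7 genes that had a window, Mcm3, Mcm5, Mcm6 and Mcm7. They also occurred in 3 of 4 S phase cyclin and kinase genes (Cdk2, Cdk1 and Cdc25a), in 3 of 8 firing factors (Gins3, Topbp1 and Pole2) and in 2 of 7 other origin recognition genes and partners (Orc3 and Jade1). None of these 8 genes passed the test. A match was also found in 1 of 5 fork protection genes (Clspn) and in 1 of 6 genes of the CRL4 group (Rbx1, not Pcna), which did not pass either, and in 0 of 16 mitosis markers. Among tested genes outside the group that had a window, 495 held a match and 1.21% of these rose (6 genes). Of the 11553 without a match 0.294% rose (34 genes). The 4 Mcm genes named above are among those 6. With MCM2-7 left out, 2 of 491 genes with a match rose (0.407%), against 33 of 11552 without one (0.286%). The median log2 differences with and without a match were 0.04 and 0.01. The difference between the sets was not tested.

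The members shared part of their order from mouse to mouse. The mean of the 7 centred log2 levels was 0.61, 0.41 and 0.50 on DOX arrays 1 to 3, against -0.51, -0.49 and -0.51 on no DOX arrays 1 to 3. DOX replicate 1 was the highest DOX array for 8 of the 9 genes, and DOX replicate 2 the lowest for 6 of them. Gmnn differed, with its lowest DOX value in replicate 1 and its highest in replicate 3. These counts include the dim Orc1 and Cdc7, and the shares over everything tested were not computed. The order was not particular to the members. Mean centred levels on DOX arrays 1 to 3 were 0.79, 0.6 and 0.69 for MCM2-7 and 0.19, -0.06 and -0.04 for keratinocyte markers. Other lists had another order, such as firing factors (0.5, 0.41 and 0.35) and muscle markers (-0.01, 0.3 and -0.16).

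Markers of mitosis did not follow this order. Of 16 tested, 0 passed, the DOX mean was the higher in 8 and the lower in 8, and the median log2 difference was -0.01. Their mean centred level was 0.16, 0.23 and -0.41 on DOX arrays 1 to 3, against -0.11, -0.25 and 0.38 on no DOX arrays 1 to 3, so replicate 3 of each group ran against its group. Mki67, which marks cycling cells, had log2 levels of 2.77, 2.87 and 2.44 with DOX, against 2.65, 2.39 and 3.12 without (difference -0.03 ± 0.22). The summed normalised signal of the mitosis list ranged from 25.6 to 39.4 with DOX and from 30.1 to 47.7 without, and its part in the licensing result was not tested. Fewer cells of a type and less RNA per cell cannot be told apart in these bulk samples.

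**Figure D4:**
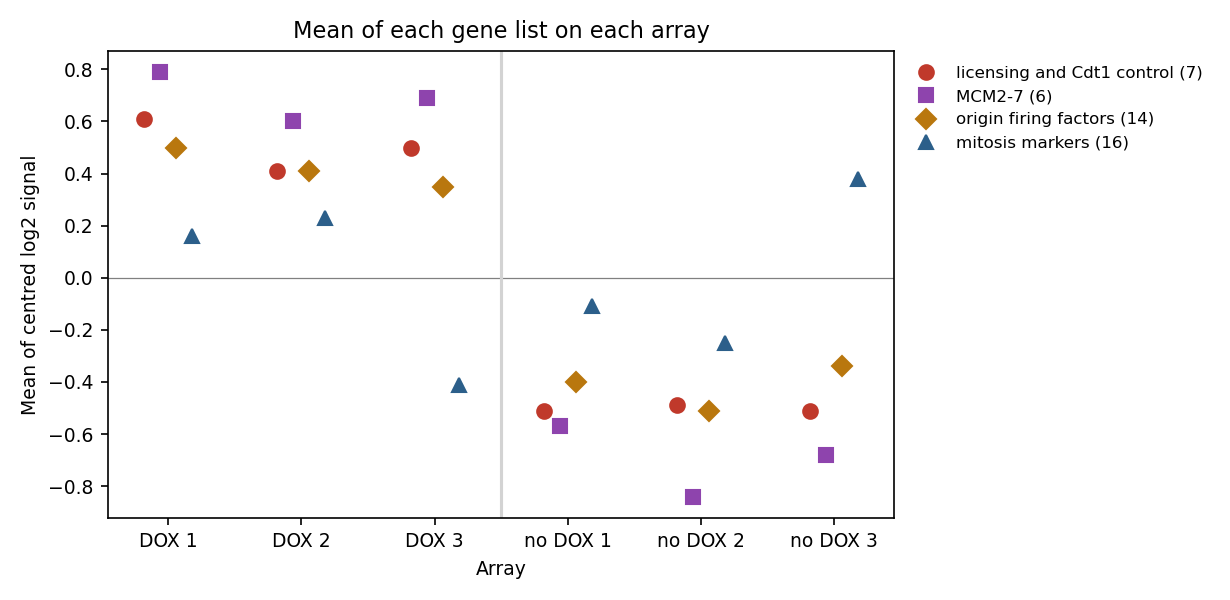
Mean centred log2 signal of 4 gene lists on each of the 6 arrays (each gene minus its own mean over the arrays, averaged over the tested genes of the list, whose number is in the legend). The licensing, MCM2-7 and firing lists lie above 0 on all DOX arrays and below 0 on all no DOX arrays, and the mitosis markers do not.

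Part of the gland marker list differed in the same direction as the licensing genes. Of 6 gland genes 4 were higher on every DOX array (Bhlha15, Lpo, Car6 and Bpifa2), as were 12.7% of everything tested. The other 2 overlapped and had the lower mean with DOX (log2 difference of Aqp5 -0.98 ± 0.43, of Klk1 -4.22 ± 1.92). None passed the threshold, and the median log2 difference was 2.19. The brightest gland gene was Bpifa2 on every DOX array, Klk1 on no DOX replicate 1 and Aqp5 on no DOX replicates 2 and 3. The summed signal of the gland list ranged from 190 to 478 with DOX and from 42.1 to 148 without. Keratinocyte sums ranged from 1493 to 1706 with DOX and from 1363 to 1754 without, and muscle sums from 1563 to 2051 with DOX and from 1489 to 2008 without. Among the 9 keratinocyte markers the DOX mean was the higher in 4 and the lower in 5. Col17a1 (log2 difference -0.47 ± 0.17) and Trp63 (-0.15 ± 0.11) were lower on every DOX array, and no keratinocyte marker was higher on every one. Stroma and vessel sums ranged from 18.5 to 30.7 with DOX and from 28.7 to 39.0 without. Immune sums ranged from 136 to 1231 with DOX and from 86.7 to 208 without. The brightest immune genes on every array were S100a9 and S100a8, at log2 levels of 9.55 and 8.87 on DOX replicate 1. The groups of both overlapped. Among the 8 tested immune markers the DOX mean was the higher in 4 and the lower in 4. Ptprc was lower on every DOX array (log2 difference -0.37 ± 0.14). Of the 8 markers 1 passed. That was the T cell gene Cd8a, which was lower with DOX (limma, adjusted p = 0.0241). With DOX no array had it clear of background. It entered through the no DOX arrays alone, so nothing is read from that call. Of the keratinocyte, muscle and stroma markers 0 passed. The part of these cell types in the licensing result was not tested.

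By the root mean square difference of centred log2 levels over the 6 arrays, the genes most like the mean of the 7 members were Etv4 (0.087), Pcna (0.091), Gins2 (0.092), Olfr1368 (0.099) and Dnaja1 (0.110), out of 14429 genes compared. For single members, Cdt1 lay nearest to Mcm3 (0.058), Dtl to Mcm5 (0.121), Orc6 to Fam111a (0.027), Orc2 to Dnttip2 (0.035) and Gmnn to Necap1 (0.042). Dbf4 lay nearest to Rnaseh2a (0.033) and Cdc6 to Nfil3, a clock-linked repressor gene (0.168). Within the group, Cdc6 and Dtl were 0.168 apart and Cdt1 and Dtl 0.199, whereas Cdt1 and Gmnn were 0.653 apart. All of these distances include the difference between the groups.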

How the data were processed

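Per the file headers, Agilent Feature Extraction (11.5.1.1 in the submitters' processing notes) gave each spot a brightness; the deposited processed signal is such an intensity after background subtraction. The authors' value table holds that intensity multiplied by 1 factor per array (3.696 to 3.986), by a rule that no label or header states. Its column medians were 90.0, 97.5 and 93.7 for DOX and 102.5, 94.2 and 92.7 for no DOX replicates 1 to 3. Groups came from the treatment labels. The labels give mice, and the replicate numbers are names.

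Spots marked as outliers (146 to 195 per array) and control spots were left out. The log2 processed signal was averaged over a probe's spots and each array's 75th percentile over probes (245.6 to 263.8 signal units) was subtracted. Accessions were named through a RefSeq table of GRCm38.p6 (28331 of 55681 probes with 1 symbol, 27350 with none). Probes well above background on all 3 arrays of a group were tested (30934), and the brightest tested probe stood for a gene. The comparison used lmFit and eBayes of limma 3.58.1 (R 4.3.3), two-sided, with Benjamini-Hochberg adjustment over all tested probes. The fit was tested on simulated data.

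The members, gene lists, motifs and tests were chosen with earlier results of these data known. Named genes are the members, Dek, up to 3 genes per list with the smallest p, and the genes nearest in profile. Orc3, Ddb1, Mcm7, Gins1, Gins3, Gins4, Ticrr, Fzr1, Mki67, Aqp5, Klk1, Bpifa2, S100a8 and the genes named for a motif match lie outside that rule and were picked once their values were known. Normexp was run on the median signal.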

Additional observations from a re-analysis of the deposited data

How the results depend on the processing

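Over everything tested, 106 genes and unnamed probes passed (73 rose and 33 fell). The count was 246 with normexp, 192 with trended and robust variances, 484 with array weights and 151 within slide row 1. Without a filter on dim probes, which raises the number tested to 48718, 1 passed. Dtl, Cdc6 and Cdt1 lay there at adjusted p = 0.0509, 0.0814 and 0.0665 (limma). So 0 members passed (limma; 7 of 9 members, and 5568 of everything tested, had an unadjusted p under 0.05). Leaving out 1 array gave 3 to 51, and 0 to 4 members that passed, against 3 with all arrays; the count of 4 includes Orc1, which entered through DOX arrays alone. Within slide row 1, 1 member passed. The median log2 difference of the 7 tested members was 0.51, with 0.42 under normexp, 0.59 within slide row 1 and 0.479 to 0.543 when 1 array was left out. Quantile scaling, median scaling, the authors' value table, the filter on all 6 arrays and the mean of a gene's probes left 3 members past the threshold, and array weights left 4, with Orc6 added. Every tested member kept its direction under every alternative. Some of these fits also had fewer arrays or more probes, and the cause of the shifts was not tested.

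With the replicate number as a block, 0 of everything tested and 0 members passed (limma; 4732 and 6 had an unadjusted p under 0.05). Deviations of same-numbered mice from their group means had correlations over probes of -0.115, -0.009 and 0.01. Those of mice with unlike numbers ranged from -0.136 to 0.149. Within a group such deviations cancel out, so the correlations cannot settle what same-numbered mice share beyond the number.

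Dim signal limits Orc1 and Cdc7, which were not tested, and no DOX replicate 3 was not well above background for the brighter Cdc6 probe.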
